A study of Homo sapiens with 72 samples.

Results

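Nilotinib at 10000 nM for 12 h was compared with DMSO in U2OS cells, a human osteosarcoma line, by population RNA-seq. The comparison used 21 of the 72 wells of the series: the 3 wells labelled AMN107 (nilotinib) at 10000 nM, and all 18 wells labelled DMSO at 0 nM, chosen by their labels alone. Wells of nilotinib at 1000 nM and 100 nM, 3 of each, were used for the dose comparison. The cells of every group had the same medium with serum and were of 1 line, so the results describe a tumour line and not the blood cells in which the compound is used. The labels do not say that the wells of a group were separate cultures, so the p-values measure the spread between wells, which may be technical.

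Nilotinib is an inhibitor of the ABL tyrosine kinase that was designed against the BCR-ABL fusion of chronic myeloid leukemia. It also binds the receptor kinases KIT, PDGFRA, PDGFRB, CSF1R, DDR1 and DDR2 and the oxidoreductase NQO2. Several pathways described here are read through their target genes: NF-kB, which drives chemokine and cytokine genes and its own inhibitors; the ERK cascade, which induces phosphatases and Sprouty proteins that feed back on it; the unfolded protein response of the endoplasmic reticulum (ER); ATF4, the transcription factor of the amino acid response; and E2F, which drives the genes of DNA replication.

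The nilotinib wells held 38.1, 40.5 and 40.5 mil expected counts, and the DMSO wells between 0.46 and 56.4 mil with a median of 36.85 mil. DMSO replicate 10 was the well of 0.46 mil, and 1 count there is worth 1.94 CPM, so its values carry a wide counting error. It also stood apart from the other 17 DMSO wells in several of the genes below: it held 23 counts of TNFAIP3, 38 of RELB and 317 of EGR1. Of the 249 calls among 731 list members and named genes tested, MT-CO2 and MYL9 were lost without it. Leaving out nilotinib replicate 1, 2 or 3 lost 78, 75 and 58 of these calls, and the list counts that moved most are given with their values below. The U2OS and mesenchymal markers summed to 5441 to 5951 CPM in the nilotinib wells and 5589 to 6851 CPM in the DMSO wells, with TWIST1 at 0 in every well. The 16 markers of other cell types summed to 4.38 to 4.6 CPM in the nilotinib wells and 1.94 to 4.41 CPM in the DMSO wells. The leukocyte marker PTPRC was between 0.0254 and 0.0747 CPM in the nilotinib wells and at most 0.293 CPM in DMSO. The only marker of another cell type that rose was PECAM1, of endothelial cells, from at most 0.426 CPM in DMSO to 0.448 to 0.635 CPM, a call lost without nilotinib replicate 1 or 2.

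Of 18616 genes tested with edgeR's quasi-likelihood test and Benjamini-Hochberg adjustment, 448 (2.41%) were higher and 132 (0.709%) were lower in the nilotinib wells with an adjusted p under 0.05 together with a change of more than 1 on the log2 scale. At the adjusted p alone, which is the rule used below for pathway genes ("rose" and "fell"), 1484 genes (7.97%) were higher and 1190 (6.39%) lower. The median log2 fold change was 1.44 for the raised and -1.26 for the lowered genes. All told, 345 of the 448 had all 3 nilotinib wells above all 18 DMSO wells, as did 1046 (5.62%) of all genes tested. Of the 132 lowered genes, 42 had all nilotinib wells below all DMSO wells, against 569 (3.06%) of all genes. By annotation, 351 of the raised and 87 of the lowered genes were protein coding. Among protein-coding genes with a mean of at least 10 CPM in the higher group there were 150 raised and 21 lowered genes. Without nilotinib replicate 1 the lowered genes numbered 64. In bulk RNA, a change in the level per cell and a change in the share of cells that express a gene cannot be told apart.

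The chemokine CXCL8, interleukin 8 (ENSG00000169429, chr4:73740519-73743716, plus strand), had the largest rise among the genes named by size. It stood at 377, 278 and 204 CPM in nilotinib wells 1 to 3. In DMSO it was at 0.376 CPM in the lowest well, 0.845 at the median and 7.78 in the highest, which was replicate 10 with 4 counts; the next well had 1.57. All 3 nilotinib wells were thus far above every control well, and the log2 fold change was 8.29 (SE 0.23, adjusted p = 4.5e-18). CCL20, a chemokine for CCR6-bearing lymphocytes, was at 59.1, 42.9 and 31.6 CPM against at most 0.441 CPM in DMSO, a log2 fold change of 7.62 (SE 0.23, adjusted p = 1.4e-17). CXCL3, a neutrophil chemokine, was at 22.0, 18.6 and 18.2 CPM against a DMSO median of 0.384 CPM (log2 fold change 5.47, SE 0.22). CCL2, the main monocyte chemokine, was at 30.9, 27.4 and 22.6 CPM against 1.27 CPM (4.34, SE 0.16).

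The other genes with the largest rises were chemokine, growth factor and survival genes, with 1 exception. CCL3, a macrophage chemokine, had a log2 fold change of 6.11, with at least 28.2 CPM in each nilotinib well against at most 0.853 CPM in DMSO, but it has near-identical copies, so its counts are uncertain. CSF2, the granulocyte-macrophage growth factor, was at 11.9, 10.5 and 11 CPM against a DMSO median of 0.268 CPM (5.24, SE 0.29). TRAF1, an adaptor of TNF receptors, was at 122, 101 and 102 CPM, and no DMSO well other than replicate 10 (25.3 CPM, 13 counts) was above 4.74 CPM. BIRC3, an inhibitor of apoptosis that binds TRAF proteins, was at 52.4, 38.5 and 26.9 CPM against at most 5.06 CPM in the 17 deeper DMSO wells and 29.2 CPM in replicate 10. BCL2A1, an anti-apoptotic BCL2 protein, was at 91.0, 72.1 and 50.4 CPM against a DMSO median of 4.06 CPM (3.93, SE 0.43). LRFN5, a synaptic adhesion protein, was that exception, at 16.2, 11.1 and 8.32 CPM against 0.891 CPM.

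**Figure D1:**
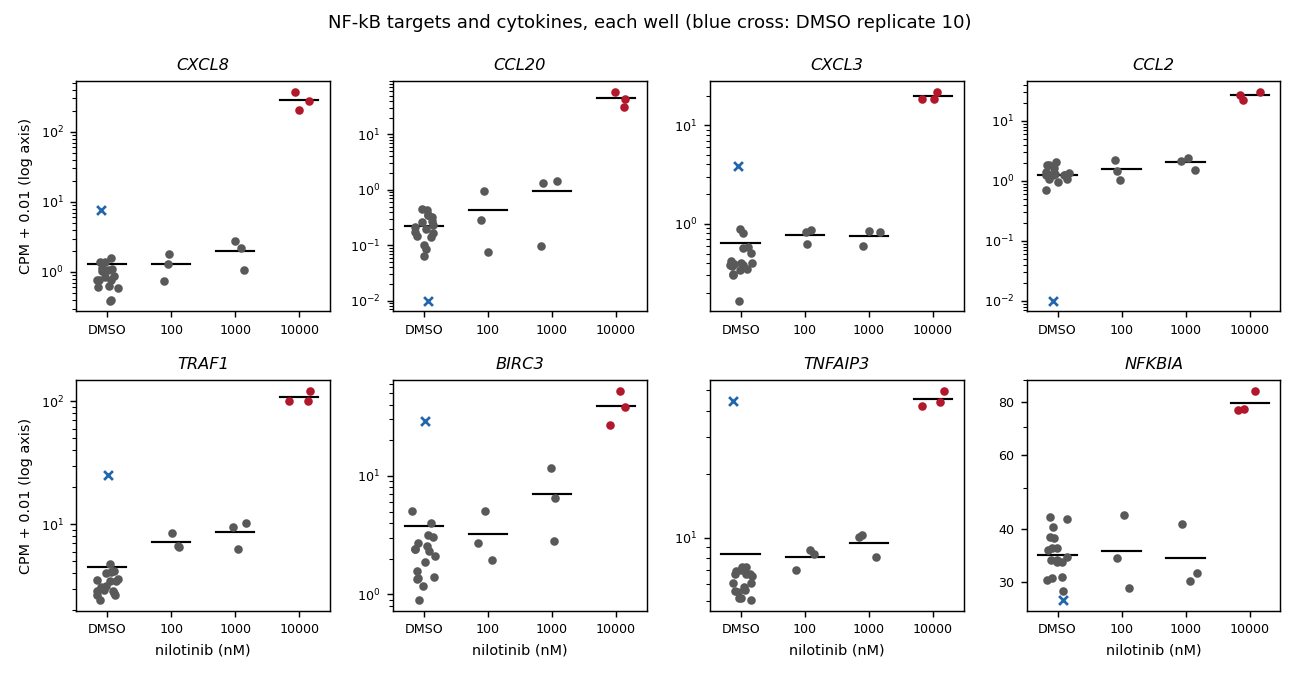
CPM (plus 0.01, log axis) of 8 NF-kB targets in each well of DMSO (18 wells) and of nilotinib at 100, 1000 and 10000 nM (3 wells each); points are wells, black lines are means and the blue cross is DMSO replicate 10. The 3 wells at 10000 nM stood above all other wells except, for BIRC3 and TNFAIP3, DMSO replicate 10.

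Of the 22 NF-kB target and cytokine genes tested, 21 rose (7.97% of all genes tested did) and none fell, with a median log2 fold change of 2.11 against 0.01 for all genes. In 14 of them all nilotinib wells were above all DMSO wells, and 18 passed the fold threshold as well. The exception was NFKBIB, at 42.4 to 43.8 CPM against a DMSO median of 37.9 CPM. CXCL1 and CXCL2 were too low to test, at 0 to 0.0487 CPM in the nilotinib wells, although the neighbouring CXCL8 and CXCL3 were not.

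The feedback inhibitors of NF-kB rose with the chemokines. NFKBIA, the inhibitor that holds the factor in the cytoplasm, was at 85.0, 77.1 and 76.6 CPM and between 27.2 and 42.8 CPM in DMSO (log2 fold change 1.19, SE 0.10, adjusted p = 2.0e-09). TNFAIP3, the ubiquitin-editing enzyme A20, was at 49.7, 42.3 and 43.8 CPM against a DMSO median of 6.34 CPM and 44.7 CPM in replicate 10 (2.81, SE 0.23). Its nilotinib wells therefore overlapped with replicate 10 and with no other DMSO well. The subunits NFKB1, NFKB2 and RELB had log2 fold changes of 1.14, 0.93 and 1.98. NFKBIE, another inhibitor, had 1.15. The inflammatory cytokines IL1B (5.88), IL1A (2.44), IL6 (2.32) and LIF (1.97) rose too. LIF, a cytokine of the IL6 family, was at 110, 95.8 and 83.3 CPM against a DMSO median of 24.6 CPM. The prostaglandin synthase PTGS2 had a log2 fold change of 1.82 and the adhesion molecule ICAM1 2.24. Without DMSO replicate 10 the list still had 21 raised genes, with a median of 2.15.

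Further inflammatory genes outside the lists were picked after their values were seen. ZC3H12A, a ribonuclease that degrades cytokine mRNAs, rose from 8.03 ± 1.65 CPM (SD, n = 18) to 70.8 ± 6.59 CPM (n = 3), and NFKBIZ, a nuclear member of the inhibitor family, from 5.93 ± 2.66 to 51.1 ± 6.39 CPM. TNFRSF9, a TNF receptor, rose from 11.6 ± 4.05 to 63.6 ± 9.83 CPM. LCN2, a secreted iron carrier of the acute phase, rose from 0.643 ± 0.283 to 8.45 ± 2.08 CPM, and CCL4 from 0.00986 ± 0.013 to 5.85 ± 0.497 CPM.

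Promoter sequences show what several of these genes share. Of the 21 raised members, 16 had an entry in the RefSeq table of promoters (250 bases before to 50 after the start, GRCh38.p14), and 10 of these (62.5%) held the kappa B-like letters GGNNTTTCC on either strand, as did 1710 of 27305 promoters in the table (6.26%). A match is a description of the letters and not a measured site. The list was made of known NF-kB targets, so its share of matches describes the list and not the response to nilotinib. Raised and unchanged members were not compared, and the same holds for the promoters of the lists below. The promoters of the 3 chemokines with the largest rises in the list and of NFKBIA are given here, with the matches in capitals. They lie at chr4:73740319-73740618 on the plus strand (CXCL8), chr4:74038640-74038939 on the minus strand (CXCL3), chr2:227813592-227813891 on the plus strand (CCL20) and chr14:35404700-35404999 on the minus strand (NFKBIA).
CXCL8: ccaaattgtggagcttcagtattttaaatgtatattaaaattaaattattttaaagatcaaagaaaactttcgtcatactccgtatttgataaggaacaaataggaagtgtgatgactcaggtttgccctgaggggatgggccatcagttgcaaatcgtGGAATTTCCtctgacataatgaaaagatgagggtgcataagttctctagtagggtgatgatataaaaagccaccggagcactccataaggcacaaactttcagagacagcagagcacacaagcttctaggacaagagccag
CXCL3: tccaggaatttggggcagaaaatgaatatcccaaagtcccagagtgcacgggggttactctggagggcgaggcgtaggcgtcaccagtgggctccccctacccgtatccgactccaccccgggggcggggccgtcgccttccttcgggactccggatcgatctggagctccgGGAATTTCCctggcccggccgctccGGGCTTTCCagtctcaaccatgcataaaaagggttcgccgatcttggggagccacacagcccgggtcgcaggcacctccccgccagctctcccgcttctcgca
CCL20: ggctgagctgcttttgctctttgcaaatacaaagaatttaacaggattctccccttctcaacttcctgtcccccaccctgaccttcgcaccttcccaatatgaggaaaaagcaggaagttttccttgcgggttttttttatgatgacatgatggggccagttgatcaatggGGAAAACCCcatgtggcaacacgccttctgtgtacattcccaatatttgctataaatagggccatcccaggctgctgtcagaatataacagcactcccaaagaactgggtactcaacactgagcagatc
NFKBIA: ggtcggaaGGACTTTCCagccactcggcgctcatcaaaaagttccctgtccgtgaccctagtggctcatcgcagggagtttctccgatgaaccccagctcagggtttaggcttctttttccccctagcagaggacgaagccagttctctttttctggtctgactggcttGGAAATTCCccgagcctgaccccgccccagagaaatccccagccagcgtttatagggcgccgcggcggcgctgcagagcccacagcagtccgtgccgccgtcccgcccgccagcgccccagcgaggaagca
The match lay 91 to 83 bases before the start in CXCL8 and 79 to 71 bases before it in CCL20, where it was on the opposite strand. CXCL3 held a pair, from 78 and from 53 bases before the start, and NFKBIA had one from 242 and another from 81. The other promoters with the letters were those of NFKB1, TNFAIP3, TNFAIP2, BIRC3, IL6 and ICAM1.

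The NF-kB genes were also measured at the lower doses. Against the same DMSO wells, 2 genes of the list rose at 1000 nM (2.51% of all genes did) and 6 at 100 nM (5.5%), with medians of 0.40 and 0.38. Each dose had its own filter, so the genes tested can differ. Tested directly, 102 genes (0.587% of 17373 tested) were higher at 10000 nM than at 1000 nM at the adjusted p and fold, and 0 were lower; 1365 genes had an unadjusted p under 0.05, and DESeq2 gave 167 higher and 6 lower. This test shares the 3 treated wells with the comparison against DMSO but no control wells. At the adjusted p alone (0.627% of all genes), 14 of the 22 NF-kB genes were higher and none was lower (0.00576% of all genes were), with a median step of 1.80. With at least 10 counts in every well, 9 of 17 were higher, with a median of 1.37. CXCL8 had a step of 7.15 (adjusted p = 0.0011), CXCL3 of 4.71, CCL2 of 3.74, TNFAIP3 of 2.27 and NFKBIA of 1.23. BCL2A1 had a step of 1.36 that did not pass (adjusted p = 0.51), and it rose at 1000 nM by 2.6 and at 100 nM by 1.71. Each count of this step depends on single wells of 6. It was between 26 and 36 genes, and 5 for the NF-kB list, without any 1 well other than 1000 nM replicate 2, and 191 genes, 20 of them in the list, without that well. The median step of the list stayed between 1.67 and 1.92 in these fits. By chi-square per degree of freedom, 1000 nM replicate 2 differed from replicates 1 and 3 by 222 and 146, and they from each other by 39.9. Its GC slope was 0.341 against -0.383 and -0.263 in them. Mitochondrially encoded mRNAs took 0.146% of its counts, against 0.257% and 0.255%. The part of these differences in the step was not tested.

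**Figure D2:**
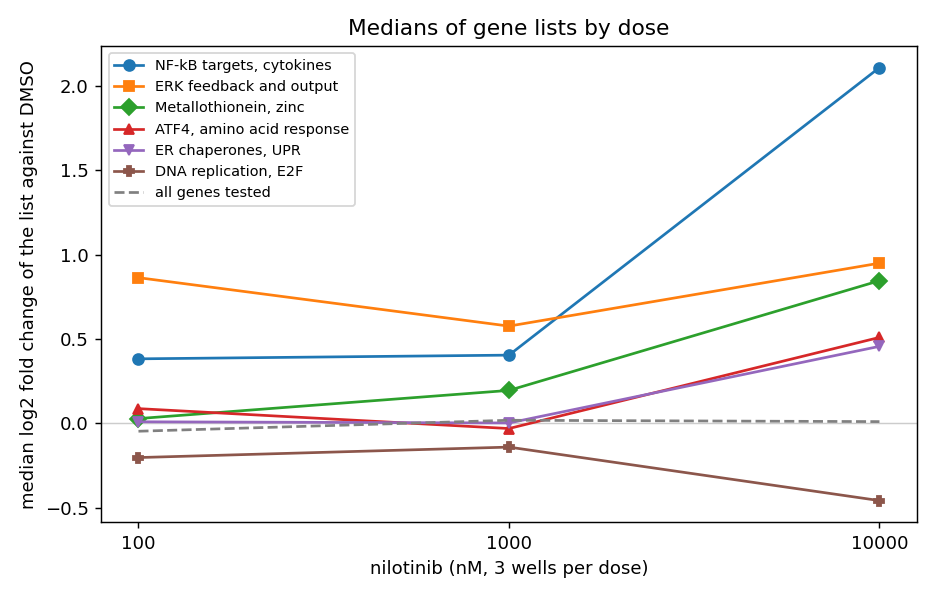
Median log2 fold change against the same 18 DMSO wells of 6 gene lists and of all genes tested (dashed), at 100, 1000 and 10000 nM nilotinib (3 wells per dose, doses as categories). The NF-kB median was 0.38, 0.40 and 2.11; the ERK median was 0.86, 0.58 and 0.95; the ER median was 0.01, 0.00 and 0.46, and the ATF4 median 0.09, -0.03 and 0.51.

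ERK output genes were higher than in DMSO at each dose. Of 25 tested, 17 rose at 10000 nM, 15 at 1000 nM and 17 at 100 nM, and none fell, with medians of 0.95, 0.58 and 0.86. None of the 25 passed in the step from 1000 to 10000 nM by edgeR with these 6 wells; 1 did by DESeq2, 1 with all nilotinib doses in 1 edgeR fit and 2 without 1000 nM replicate 2. DUSP5, a nuclear phosphatase of ERK, was at 52.8, 51.2 and 47.0 CPM and between 8.97 and 21.9 CPM in DMSO (log2 fold change 1.75, SE 0.18), with 1.23 at 1000 nM and 1.14 at 100 nM. PHLDA1, an immediate early gene, was at 26.5, 23.8 and 17.8 CPM against a DMSO median of 6.06 CPM (1.83, SE 0.15). All 3 nilotinib wells were above all DMSO wells for both genes. The feedback inhibitors SPRY2 and SPRY4 rose by 1.19 and 1.26, the transcription factors MYC, ETV5 and FOSL1 by 0.76, 0.88 and 0.99, and IER3 by 1.15. DUSP6, a cytoplasmic ERK phosphatase, was nearly absent from these cells, at most 0.813 CPM, and CCND1, cyclin D1, was at 215 to 246 CPM against a DMSO median of 209 CPM (0.12, adjusted p = 0.41). EGR1 was at 240, 251 and 177 CPM, above 17 DMSO wells (at most 95.7 CPM), while replicate 10 had 616 CPM. With that well left out, 20 ERK genes rose.

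Of 5 ligands of the EGF receptor tested, 3 rose: EREG by 1.47, AREG by 1.16 and HBEGF by 1.03. HBEGF was at 81.6, 77.5 and 74.2 CPM against 17.5 to 49.1 CPM in DMSO. The receptor tyrosine kinases EPHA4 (1.73) and EPHB1 (1.10) rose, whereas EPHB3 (-0.78), EFNA4 (-0.77), EPHA5 (-0.69) and EFNA2 (-0.68) fell; in all, 3 of 16 ephrin and Eph genes rose and 6 fell, and 3 fell without nilotinib replicate 1 or 2. EPHB1 had a log2 fold change of 1.35 at 1000 nM and 1.04 at 100 nM.

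The chaperones and regulators of the ER rose at 10000 nM. Of 22 tested, 17 rose and none fell, with a median log2 fold change of 0.46, and 14 had all nilotinib wells above all DMSO wells. The count was 12, 11 and 11 without nilotinib replicate 1, 2 and 3. HSPA5, the main ER chaperone BiP and a sensor of unfolded proteins (ENSG00000044574, chr9:125234853-125241382, minus strand), was at 2099, 2007 and 2179 CPM, and in DMSO at 620, 908 and 1217 CPM in the lowest, median and highest well. The groups did not overlap, and the log2 fold change was 1.17 (SE 0.14, adjusted p = 1.5e-06). XBP1, the transcription factor that IRE1 splices, was at 172, 166 and 174 CPM against 65.2 to 99.9 CPM (1, SE 0.10), and ERN1, which encodes IRE1 itself, at 49.8, 45.3 and 45.4 CPM against 24.7 to 44.7 CPM (0.78, SE 0.09). The largest change in the list was that of DNAJB9, a cochaperone of BiP, at 20.1, 16.6 and 10.9 CPM against a DMSO median of 5.21 CPM (1.47, SE 0.19). HERPUD1, a part of ER-associated degradation, rose by 0.93, EDEM1, a mannosidase-like protein of that pathway, by 0.66 and the disulfide isomerase PDIA6 by 0.46. The lectin chaperone CALR stood at 1183 to 1465 CPM against a DMSO median of 1266 CPM (0.08, adjusted p = 0.65), and HSP90B1 at 536 to 689 CPM against 478 CPM (0.33, adjusted p = 0.30).

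None of the ER genes rose at 1000 nM or 100 nM, where the medians were 0.00 and 0.01. In the step from 1000 to 10000 nM, HSPA5 (1.19, adjusted p = 0.024) and HERPUD1 (0.84, adjusted p = 0.036) passed by edgeR, and no other of the 22. By DESeq2 5 passed, and 7 with all nilotinib doses in 1 edgeR fit. The edgeR count was not stable, with 0 passing without any 1 well other than 1000 nM replicate 2 and 13 without that one. Cytosolic heat shock genes did not follow: of 15, none rose and 1, CRYAB, fell (-0.79; not without nilotinib replicate 1 or 2), and HSPA8 was at 2193 to 2210 CPM against a DMSO median of 2398 CPM. Of the 17 raised ER genes, 16 had a promoter in the table, and 3 of these (18.8%; HSPA5, CANX and XBP1) held the ER stress element, CCAAT followed by CCACG after a gap of 9 bases, on either strand, against 22 (0.0806%) of all promoters. The HSPA5 promoter, chr9:125241294-125241593 on the minus strand, is given with the element in capitals, since HSPA5 and DNAJB9 were the members of the list past both thresholds.
HSPA5: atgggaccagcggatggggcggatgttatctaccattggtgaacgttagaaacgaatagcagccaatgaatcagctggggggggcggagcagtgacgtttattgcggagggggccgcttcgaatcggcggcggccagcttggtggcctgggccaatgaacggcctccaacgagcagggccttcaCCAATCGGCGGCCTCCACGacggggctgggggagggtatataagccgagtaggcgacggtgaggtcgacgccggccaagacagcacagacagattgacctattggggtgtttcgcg
The element spanned 66 to 48 bases before the start.

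Amino acid response genes rose in part. Of 28 tested, 15 rose and 1 fell, with a median of 0.51. ASNS, asparagine synthetase, was at 338, 305 and 295 CPM against 68.0 to 219 CPM in DMSO (1.11, SE 0.22), CTH, which makes cysteine, at 22.5, 22.0 and 23.5 CPM against a DMSO median of 9.12 CPM (1.24, SE 0.18), and TRIB3, a pseudokinase target of ATF4, at 166, 170 and 195 CPM against 65.4 to 92.5 CPM (1.16, SE 0.09). SESN2, an inhibitor of mTORC1, was at 154, 155 and 163 CPM against 58.9 to 97.7 CPM (1.02, SE 0.11). DDIT3, the stress factor CHOP, was at 23.0, 18.2 and 23.3 CPM, above the 17 deeper DMSO wells (at most 12.7 CPM) and overlapping with replicate 10 (21.4 CPM). Nonetheless the mRNA of ATF4 itself, at 736 to 880 CPM against a DMSO median of 693 CPM, did not pass (0.24, adjusted p = 0.15), nor did ATF3 (0.32) or GDF15 (0.61), and ATF5 fell by 0.58. Serine, glycine and one-carbon genes had 6 raised and 1 lowered of 14, led by ALDH1L2, a mitochondrial folate enzyme, at 1.29, and PSPH and PSAT1 of serine synthesis, at 0.71 and 0.57. Of 20 cytosolic tRNA synthetases 6 rose, from GARS1 at 0.62 to AARS1 at 0.29. At 1000 nM 1 ATF4 gene rose and 2 fell (1.44% of all genes fell), and at 100 nM 4 rose and 2 fell (3.58%).

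The promoter of ASNS, chr7:97872359-97872658 on the minus strand, is given because it holds the letters TGATGNAA of the amino acid response element, in capitals, from 68 to 61 bases before the start.
ASNS: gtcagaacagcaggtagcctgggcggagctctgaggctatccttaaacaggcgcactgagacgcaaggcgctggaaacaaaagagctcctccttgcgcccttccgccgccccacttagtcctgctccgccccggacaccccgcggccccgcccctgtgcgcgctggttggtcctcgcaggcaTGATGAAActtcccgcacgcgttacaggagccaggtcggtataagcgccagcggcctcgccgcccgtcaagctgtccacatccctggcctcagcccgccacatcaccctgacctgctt
Those letters were in 3 of 14 raised ATF4 genes with a promoter (21.4%; ASNS, SLC3A2 and SLC7A1) and in 1003 of all promoters (3.67%).

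**Figure D3:**
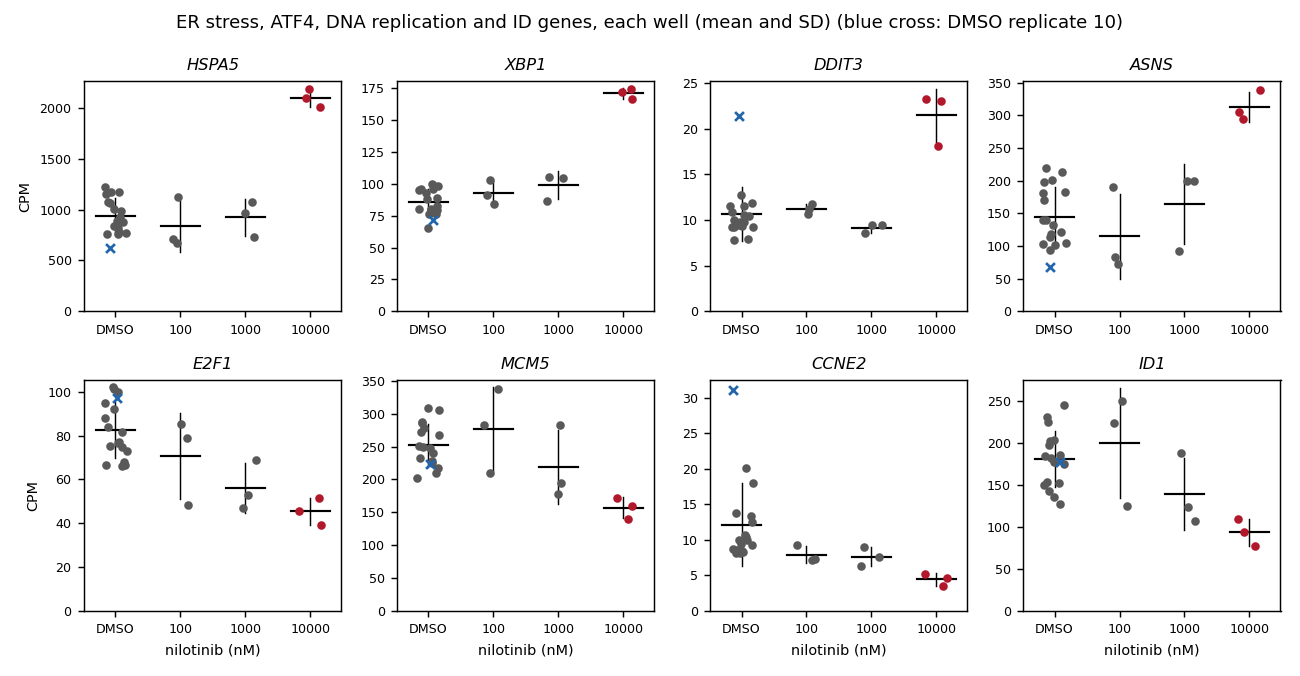
CPM of 8 genes in each well of DMSO (18 wells) and of nilotinib at 100, 1000 and 10000 nM (3 wells each); points are wells, black bars are the mean and SD and the blue cross is DMSO replicate 10. HSPA5, XBP1 and ASNS stood above, and E2F1, MCM5, CCNE2 and ID1 below, all DMSO wells at 10000 nM; for DDIT3 replicate 10 lay among the nilotinib wells.

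Genes of DNA replication fell at 10000 nM. Of 40 tested, 26 fell (6.39% of all genes did) and none rose, with a median log2 fold change of -0.46, and in 17 all nilotinib wells were below all DMSO wells. Without nilotinib replicate 1 the count was 17. CCNE2, cyclin E2, had the largest change, at 4.65, 5.11 and 3.44 CPM against 8.09 CPM in the lowest DMSO well and 9.92 CPM at the median (-1.35, SE 0.30, adjusted p = 0.0026). E2F1 (ENSG00000101412, chr20:33675477-33686385, minus strand), the founding factor of the family, was at 39.1, 45.8 and 51.6 CPM and in DMSO between 66.3 and 102 CPM with a median of 79.5 CPM (-0.84, SE 0.14, adjusted p = 0.00015). E2F2, an activator, and E2F8, a repressor, had -1.25 and -0.77. MCM5, of the replicative helicase, was at 139, 159 and 171 CPM against 203 to 309 CPM (-0.68, SE 0.12), and MCM2, MCM7, MCM4 and MCM3 had -0.56, -0.49, -0.46 and -0.46. The same direction held for CHAF1A of the chromatin assembly factor (-0.71), RRM2 of ribonucleotide reductase (-0.61), thymidine kinase TK1 (-0.58) and CCNE1 (-0.61). The sliding clamp PCNA was at 134 to 149 CPM against a DMSO median of 155 CPM (-0.21, adjusted p = 0.49), and RRM1, POLA1 and BRCA1 had 0.10, 0.09 and -0.13, without passing.

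Of 36 mitosis genes, 4 fell (NUSAP1, FOXM1, ESPL1 and CCNF, by 0.29 to 0.43) and none rose, with a median of -0.11. This count was 1 without nilotinib replicate 1 or 2, 7 without DMSO replicate 10, 8 by DESeq2 and 14 with GC slope as a covariate. At 1000 nM 3 of the 40 replication genes fell and at 100 nM 4 did. In the step from 1000 to 10000 nM 0 of 40 passed by edgeR or DESeq2, with a median step of -0.27 (3 were lower by edgeR without 1000 nM replicate 2). Some wells at lower doses also lay below every DMSO well. E2F1 was at 46.7, 68.7 and 52.7 CPM at 1000 nM and 48.3, 85.3 and 78.8 CPM at 100 nM. MCM5 was at 178, 283 and 194 CPM at 1000 nM and 210, 338 and 283 CPM at 100 nM. The fall was thus not seen at 10000 nM alone in single wells. Of the 26 genes that fell, 21 had a promoter in the table, and 11 of these (52.4%) held the E2F-like letters TTTNNCGC on either strand, against 1884 (6.9%) of all promoters. The E2F1 promoter, chr20:33686336-33686635 on the minus strand, had the most matches of those given here, 4, a pair of which overlap, and is shown with the matches in capitals.
E2F1: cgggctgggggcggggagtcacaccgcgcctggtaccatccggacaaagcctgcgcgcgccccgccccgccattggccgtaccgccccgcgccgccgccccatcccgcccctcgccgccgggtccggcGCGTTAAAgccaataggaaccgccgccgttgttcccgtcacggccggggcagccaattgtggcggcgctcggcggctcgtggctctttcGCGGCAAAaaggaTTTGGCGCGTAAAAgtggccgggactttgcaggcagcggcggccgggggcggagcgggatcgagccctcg
The matches began 122, 33, 20 and 14 bases before the start.

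**Figure D4:**
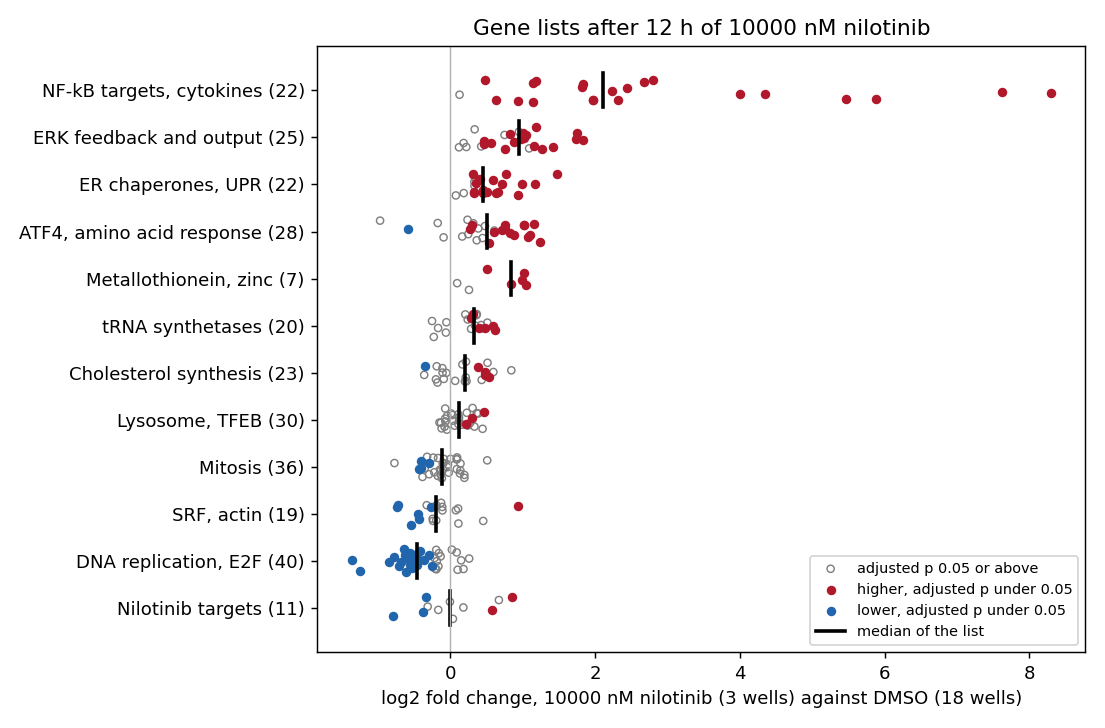
Log2 fold change at 10000 nM nilotinib (3 wells) against DMSO (18 wells) of each tested gene in 12 lists, whose numbers of genes are in brackets; filled points have an adjusted p under 0.05 (red higher, blue lower), open points do not, and black bars are list medians. The NF-kB list reached from 0.13 to 8.29, while the replication list lay mostly between -1.35 and 0.

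The genes with the largest falls were of mixed kinds. MAP1A, a microtubule-associated protein (ENSG00000166963, chr15:43510958-43531620), was at 78.9, 79.0 and 98.8 CPM against 187 to 406 CPM in DMSO, with no overlap (-1.65, SE 0.19, adjusted p = 1.2e-06), and it was also lower at 1000 nM (-1.12) and 100 nM (-0.73). AKAP5, which anchors protein kinase A, had -1.38, ARSI, a sulfatase, -1.27, the transcription factor GLIS2 -1.19 and the terminal nucleotidyltransferase TENT5B -1.19. SAMD11 and the zinc finger gene ZSCAN31 had -1.32 and -1.20, and -1.46 and -1.29 at 1000 nM. DBP, an output factor of the circadian clock, was at 2.51, 4.48 and 5.16 CPM against a DMSO median of 8.57 CPM (-1.22, SE 0.26). Among 16 clock genes 3 rose, led by the repressor BHLHE40 (1.58), and 4 fell, of which 2 did so without nilotinib replicate 1.

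Inhibitors of differentiation, the ID proteins that BMP signalling induces, fell. ID1 was at 76.8, 93.7 and 110 CPM and between 127 and 246 CPM in DMSO (-0.94, SE 0.17), and ID2 and ID4 had -0.97 and -1.01. SMAD6, an inhibitor of BMP receptors and a target of the pathway, had -0.88, with 5.97, 8.71 and 9.07 CPM against at least 10.0 CPM in DMSO. In the same list PMEPA1, a TGF-beta target, rose by 0.98. In all, 5 of 16 rose and 5 fell, and 2 fell without nilotinib replicate 1. PMEPA1 rose at all doses, by 0.96 at 1000 nM and 0.89 at 100 nM, where ID1 had -0.36 and 0.14. By well, ID1 was at 107, 188 and 123.5 CPM at 1000 nM and 125, 250 and 224 CPM at 100 nM. Of these, wells 1 and 3 at 1000 nM and well 1 at 100 nM lay below every DMSO well.

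Metallothioneins, small proteins that bind zinc and copper, rose. MT2A was at 3570, 3834 and 3529 CPM against 929 to 2435 CPM in DMSO (1.05, SE 0.18), MT1X at 62.8, 68.2 and 76.0 CPM against 17.5 to 43.2 CPM (1, SE 0.12) and MT1E at 532, 560 and 579 CPM against 185 to 398 CPM (0.85, SE 0.13). The zinc exporter SLC30A1 rose by 0.50. Of 7 tested, 5 rose, and 3, 3 and 4 did without nilotinib replicate 1, 2 and 3. These genes are near-identical in part, so their counts may be split.

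Other lists held fewer changes, to be read beside the shares of all genes tested (7.97% rose and 6.39% fell). Matrix glycoproteins, integrins and matrix proteases together had 8 raised of 31. Among them were MMP10 (2.89), MMP1 (2.61) and the collagen receptor subunit ITGA2 (1.79, from a DMSO median of 51.5 CPM to 198, 177 and 130 CPM). The 8 were 5 without nilotinib replicate 2 or 3. Of 25 collagen genes 1 rose, and 0 without any 1 nilotinib well. Interferon-stimulated genes had 7 raised of 23, led by the RNA sensors IFIH1 (1.33) and RIGI (1.30) and by IFIT3 (1.28), and 1 lowered (IFI44L, -1.51; not without any 1 nilotinib well), while MX1 (0.11) and ISG15 (-0.02) did not pass. Targets of p53 had 6 raised of 22: GADD45A (1.44), the death receptor TNFRSF10B (1.03), PLK3 (0.77), BBC3 (0.77), CDKN1A (0.43) and AEN (0.41). In the BCL2 family 5 of 16 rose, with MCL1 at 366, 330 and 298 CPM against 132 to 259 CPM (0.92), and 3 fell, with BMF at 0.660 to 1.05 CPM against a DMSO median of 4.64 CPM (-2.21). BMF was lower at all doses (-3.23 at 1000 nM and -2.51 at 100 nM). Autophagy genes had 4 raised of 15 (MAP1LC3B 0.91, WIPI1 0.87, OPTN 0.73, SQSTM1 0.41), and sterol transport had NPC1 at 182, 167 and 167 CPM against 64.1 to 115 CPM (0.84). YAP targets had 5 raised, with CCN2 at 1.41 and ANKRD1 at 1.17, and 3 lowered of 21 (1 without nilotinib replicate 1). SRF and actin genes had 1 raised (FHL2, 0.94) and 6 lowered of 19, among them CNN2 (-0.72) and TPM1 (-0.42), and 2 were lowered without nilotinib replicate 1, 2 or 3. CYP1A1, the classical target of the aryl hydrocarbon receptor, was at 8.74, 9.13 and 8.37 CPM against 1.48 to 3.89 CPM (1.97, SE 0.13).

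In the remaining lists, the members raised and lowered were as follows: cholesterol synthesis 4 raised and 1 lowered of 23, fatty acid synthesis 0 and 2 of 13, sterol efflux 2 and 0 of 9, lysosome 3 and 0 of 30, NRF2 targets 2 and 2 of 19, hypoxia and glycolysis 4 and 2 of 29, FOXO and PI3K feedback 1 and 2 of 19, ribosome biogenesis 1 and 1 of 32, nuclear oxidative phosphorylation 0 and 1 of 36, mitochondrial stress 1 and 1 of 15, aryl hydrocarbon receptor targets 2 and 0 of 7 and drug transport and metabolism 2 and 1 of 10. Over all genes tested, 7.97% rose and 6.39% fell, and some of these counts lie near those shares. Several of these small counts rest on single wells: without nilotinib replicate 2, cholesterol synthesis had 1 raised and 0 lowered, hypoxia and glycolysis 1 and 0, lysosome 0 raised, fatty acid synthesis 0 lowered and NRF2 targets 0 and 0.

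Mitochondrially encoded mRNAs took 0.35 to 0.387% of counts in the nilotinib wells and 0.138 to 0.367% in DMSO, a mean of 0.372 ± 0.0197% (SD, n = 3) against 0.243 ± 0.0579% (n = 18; exact permutation test over wells, two-sided, p = 0.003008, 0.01203 after Benjamini-Hochberg adjustment over 4 measures). Of the 13 mRNAs, 4 rose, MT-CO1 (0.77), MT-CO2 (0.77), MT-ND2 (0.68) and MT-CO3 (0.48); 1 rose without nilotinib replicate 1, 2 or 3, and 3 without DMSO replicate 10, where MT-CO2 had an adjusted p of 0.0508 by edgeR. The median of the 13 was 0.59, and 0.32 with GC slope as a covariate. Miglitol at 10000 nM, against the same DMSO wells, had a share of 0.281 to 0.354% (mean 0.325 ± 0.0391%, n = 3) and a median of 0.52, with none of the 13 passing. The part of this share in the other results was not tested. Depth, fragment length and GC slope did not differ by the same test (adjusted p of at least 0.3609), although the differences could be missed with 3 wells.

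The proteins that nilotinib binds were measured at the level of mRNA. Of 11 targets tested, ABL2 (0.86; 326, 272 and 248 CPM against 115 to 200 CPM) and DDR2 (0.57; 72.4 to 88.6 CPM against at most 71.8 CPM) rose, and PDGFRA (-0.79; 8.15, 9.30 and 9.07 CPM against 12.1 to 19.7 CPM), DDR1 (-0.37) and PDGFRB (-0.33) fell; of these, only PDGFRA and ABL2 passed without each nilotinib well in turn. ABL1 was at 244, 244 and 246 CPM against a DMSO median of 215 CPM (0.18, adjusted p = 0.26). KIT was at 0 in every DMSO and nilotinib well, a listing that at these depths allows up to 3 counts per well, and CSF1R was below 2 CPM in all but DMSO replicate 10.

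The other compounds at 10000 nM share the DMSO wells, and the differences between compounds were not tested. Triptolide was also fitted against these wells, where 5961 of 18536 genes rose and 7352 fell, but its gene lists were not counted. For MK-2206, an AKT inhibitor, 0 NF-kB genes of 20 rose (2.21% of all genes did), for pyrazolanthrone, a JNK inhibitor, 4 of 20 (3.35%), and for miglitol, an inhibitor of intestinal glucosidases, 0 of 20 (0%; 4195 genes had an unadjusted p under 0.05). For homoharringtonine, a translation inhibitor that raised 36.7% and lowered 37.2% of all genes, 18 of 21 rose and 1 fell, and CXCL8 had a log2 fold change of 6.39, whereas CCL2 had -2.41 and HSPA5 -1.71. ERK output genes had 12 raised of 25 with MK-2206 (median 0.60), 9 with pyrazolanthrone (0.39), 0 with miglitol (0.09), and 17 raised and 6 lowered with homoharringtonine (0.92). ER genes had 0 raised of 22 with MK-2206, 5 with pyrazolanthrone and 6 raised and 12 lowered with homoharringtonine. ATF4 genes had 23 raised of 28 with pyrazolanthrone, and 2 raised and 6 lowered with MK-2206 (0.948% of all genes were lowered).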

How the data were processed

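Population RNA-seq of U2OS cells was analysed from 3 wells of nilotinib at 10000 nM, 3 at 1000 nM, 3 at 100 nM and 18 of DMSO, all after 12 h. Libraries were made with the TruSeq stranded mRNA kit and poly(A) selection and sequenced on an Illumina HiSeq instrument. The authors' RSEM run gave the deposited expected counts (estimated reads per gene, not normalized, used for all tests after rounding), TPM values (scaled by length to the same total in each library, used only to choose 1 identifier per symbol), FPKM values (scaled to length and depth, not used in a test) and effective lengths, which the deposited files give beside the counts, for 60371 Ensembl genes. Submitters' processing notes name RSEM, HTSeq, DESeq2 and GRCh38; the RSEM version and the annotation release are not given in the sources used here. For the middle dose the labels (1000 nM) were followed, since the methods text has 1 nM. Symbols and positions came from GENCODE release 44 (GRCh38), which held 56104 identifiers, and promoter sequences from RefSeq.

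Tests were made in R 4.3.3 with edgeR 4.0.16 (TMM, filterByExpr with a minimum count of 10, quasi-likelihood test, Benjamini-Hochberg adjustment over all genes tested), with DESeq2 1.42.0 as an alternative. CPM values are edgeR's with TMM, and fold changes are log2. For single values, exact permutation tests used scipy 1.17.1 (Python 3.11.15). Each group was fitted with DMSO alone, with no covariate. Named genes are the targets of nilotinib, the 10 protein-coding genes that rose most and the 10 that fell most past both thresholds, given a mean of at least 10 CPM in the higher group and every nilotinib well on 1 side of all DMSO wells other than replicate 10, and up to 6 members of each of 38 gene lists past the adjusted p with at least 1 CPM (where fewer than 2 pass, the 2 most abundant). Some genes that this rule names are not reported here. Members named beyond that rule were chosen after their values were seen. The compound, the lists and the promoter letters were chosen with earlier results of these data known, so no list is independent evidence. No duplicate libraries were found: replicates of nilotinib at 10000 nM differed by a chi-square of at least 10.4 per degree of freedom. Pairs of DMSO wells ranged from 3.38 (replicates 3 and 7) to 249.7 (replicates 7 and 16). Replicates 11 and 13 differed by 4.84, and 5 and 11 by 5.95. Some DMSO wells were thus much closer to each other than to the rest. Whether the DMSO wells were independent of each other was not tested. The steps were tested on simulated counts with 100 genes changed by a log2 of 1 and 100 by 2: edgeR recovered 100 and 100 of 18253 genes tested with 9 false calls against DMSO, and 97 and 100 of 17371 with 10 false calls in the dose step. Those simulated counts had a single fixed dispersion for every gene, changed genes of at least 1 CPM only, and no wells that stood apart. The recovery therefore checks the steps and does not measure missed or false calls in the real wells. Intervals from counting cover counting error only. Alternatives tried were another normalization, filter or tool, covariates for GC slope and fragment length, left-out wells, a fit over all doses and a replicate block.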

Additional observations from a re-analysis of the deposited data

Results flagged for a closer look

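In 9 genes the effect against DMSO had opposite signs at 1000 nM and 10000 nM nilotinib and the difference between the doses itself passed the test (edgeR quasi-likelihood, Benjamini-Hochberg over 17373 genes, 3 wells against 3). The steps on the log2 scale were 1.56 for the RNA sensor IFIH1, 1.24 for DDIT3, 1.19 for HSPA5, 1.12 for SESN2, 1.07 for the pro-apoptotic HRK, 1.03 for MT1X, 1.03 for the autophagy gene WIPI1, 0.96 for INSIG1, which restrains sterol synthesis, and 0.9 for the autophagy receptor OPTN. The effects at 1000 nM were small in all of them, from -0.01 for HSPA5 and MT1X to -0.46 for INSIG1, the only one of the 9 to pass there (adjusted p = 0.048), which also had -0.54 at 100 nM. None of the 9 steps passed when a single well other than 1000 nM replicate 2 was left out, nor with the replicate block. Steps of this kind rest on few wells, as the counts by left-out well in the next part also show. Groups of 3 and of 18 wells were not screened by a rule for single wells that stand apart. The values of 1000 nM replicate 2 are given with the dose step above.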

How the results depend on the processing

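Against DMSO, 448 genes were raised and 132 lowered past both thresholds, and 1484 and 1190 at the adjusted p alone. Requiring at least 10 counts in every well gave 244 raised and 87 lowered of 14846 genes tested. Against DMSO this rule left replicate 10 out of account, although that well stayed in the fit. With the replicate block, which keeps DMSO replicates 1 to 3, the counts were 852 and 347 past both thresholds and 3210 and 2334 at the adjusted p alone; the same wells without the block, an alternative chosen after seeing the data, gave 827 and 343, and 3379 and 2837. The deviations of same-numbered wells correlated by -0.42, -0.04 and 0.31 with DMSO and 0.67, -0.04 and -0.22 between doses, so the numbers did not pair the wells. Without 1 nilotinib well, the counts ranged over 373 to 440 raised, 64 to 152 lowered, 870 to 1049 raised and 341 to 838 lowered; without DMSO replicate 10 they were 452, 140, 1659 and 1427. In the dose step, 102 higher and 0 lower genes became 167 and 6 with DESeq2, 67 higher with at least 10 counts in every well, 34 with the replicate block, 1 lower with no filter on low counts and 2 lower with all nilotinib doses in 1 fit; without 1 well they ranged from 26 to 191 higher and from 0 to 6 lower. DESeq2 tested 19973 genes and its median log2 fold change was -0.12, against 0.01 by edgeR.

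Over 180 named genes and 14 alternatives, 2248 values kept their direction and side of the threshold, 238 no longer passed, 11 newly passed and 12 changed sign. None of the last passed in edgeR's test. They were MAP3K20 (-0.157 with GC slope as a covariate), EPHA8 (0.001 with at least 10 counts in every well, -0.194 to 0.16 without 1 nilotinib well, 0.077 with GC slope, 0.001 without DMSO replicate 10), HSPA8 (0.209 with the replicate block, 0.191 for the same wells without it), ATP5F1B (0.013 without nilotinib replicate 1), ATP5F1A (-0.005 to 0.113 without 1 nilotinib well, -0.08 with GC slope) and VIM (-0.006 and -0.007 with and without the block). With 3 wells in the treated group, changes under 2-fold in genes of few counts could be missed, and the cause of the changed counts was not tested.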
